A study of Sus scrofa with 6 samples.

Results

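The 10 genes described here are 9 genes by which endothelial cells, the lining of blood vessels, are recognised, and the vessel growth factor gene VEGFA. They were chosen by symbol from the deposited expression table, where each of the 10 symbols has 1 row among 25878 listed genes. Longissimus dorsi, a back muscle, was sampled from 3 Nanyang Black pigs with high-fat deposition (HF01, HF02 and HF03) and 3 with low-fat deposition (LF01, LF02 and LF03), with no treatment named and an age of 180 days in the labels. Another age stands in the study's table of traits. By the study's account the animals were sibling females of a single farm, and their kinship across the groups is not given in the sources used here. They were selected by backfat, intramuscular fat, stained fat in tissue slices and total fatty acids relative to dry matter. RNA was taken from whole pieces of muscle, so that fewer cells of a type and less RNA per cell cannot be told apart. Levels are in FPKM, a fragment count divided by transcript length and by the mapped fragments of the library, so that genes of different length can be compared.

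Endothelial cells are held together at their junctions by CDH5 (VE-cadherin) and PECAM1 (CD31), and they store VWF, the blood clotting protein that captures platelets. They sense the ligand VEGFA through the receptor kinases KDR and FLT1, of which KDR carries most of the growth signal and FLT1 binds VEGFA tightly and limits what reaches KDR. TEK (TIE2) is the receptor of the angiopoietins and TIE1 its partner, ERG is an ETS family transcription factor that maintains endothelial identity, and EGFL7 is a protein that endothelial cells secrete into their matrix. VEGFA differs from the other genes in that its messages in muscle come to a large part from the fibres, in which it is induced by low oxygen and by the coactivator PPARGC1A. In skeletal muscle the capillaries run along the fibres, and slow, oxidative fibres are known to be served by more of them.

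All 10 genes were detected in every library, and 0 of them was listed at 0 in any pig. PECAM1 had the highest mean, at 31.0 FPKM over the 6 pigs (18.9 to 35.9), followed by VEGFA at 30.4 (13.3 to 52.7), EGFL7 at 16.1 (12.9 to 20.1), CDH5 at 11.3 (6.34 to 16) and VWF at 10.4 (6.95 to 15.6). The receptors were lower, with TEK at 7.28 (5.02 to 9.32), FLT1 at 5.46 (3.05 to 7.67), KDR at 4.32 (2.68 to 5.94) and TIE1 at 4.06 (2.35 to 5.43). ERG, the transcription factor, was lowest at 2.81 (1.6 to 4.24). The ranges of every pair of neighbours in this order overlapped between pigs. Within single libraries the order was steadier, since TEK, FLT1 and ERG held ranks 6, 7 and 10 in each of the 6, while PECAM1 lay above VEGFA in 4 and KDR above TIE1 in 4.

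Of the 10 genes, 9 had a higher mean in the HF group and EGFL7 had a lower one, and none was called. HF and LF were set against each other with limma on log2(FPKM + 0.1), over 11136 genes averaging 0.5 FPKM or more, which all 10 passed, and calls needed a p under 0.05 after Benjamini-Hochberg adjustment over these genes. Across all tested genes 8 were called (0.0718%), 4 higher (0.0359%) and 4 lower (0.0359%). The sign was positive for 48.1% of them and negative for 51.9%, and their median log2 fold change was -0.026, against 0.46 over the 10 genes. At an unadjusted p under 0.05, 1 of the 10 was higher, against 11.0% of all tested genes, and 0 were lower, against 13.8%. The number with a positive log2 fold change was 9 under every other setting that kept all 10 genes, except that it was 8 without LF03. The count at an unadjusted p under 0.05 was 3 (CDH5, FLT1 and VEGFA) with upper-quartile scaling (where 16.3% of all genes passed), 5 without LF02 (those 3 with KDR and TIE1, where 11.5% of all genes passed), 2 without HF02, and 0 without HF01, HF03 or LF03.

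**Figure D1:**
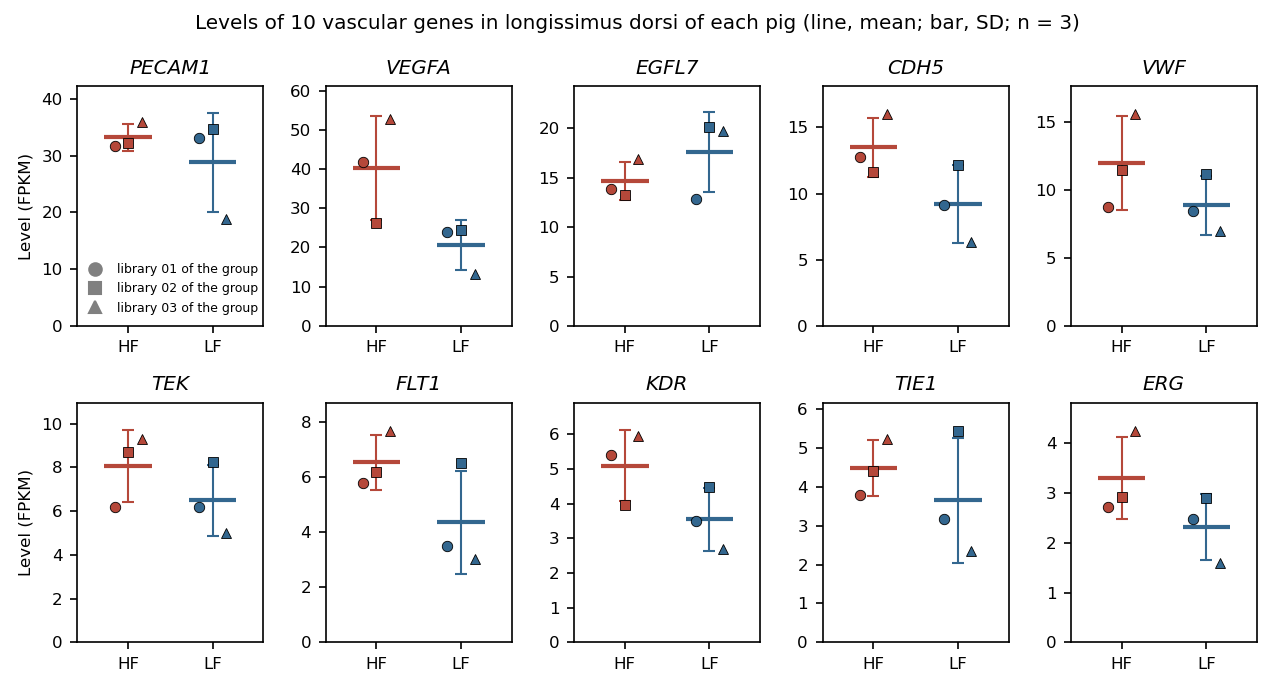
Level in FPKM of each of the 10 genes in each pig, with HF in red and LF in blue. Points are single libraries, horizontal lines are means and bars are SDs (n = 3 pigs per group), and each vertical axis starts at 0. VEGFA is the gene whose groups do not overlap, and LF03 is the lowest pig in 9 of the 10 panels.

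VEGFA, the ligand, had the largest difference of the 10. The gene is located on chromosome 7 (Sscrofa11.1, 38746055 to 38762342). HF01, HF02 and HF03 measured 41.9, 26.2 and 52.7 FPKM, against 24.0, 24.5 and 13.3 for LF01, LF02 and LF03. The groups did not overlap, although HF02 exceeded LF02 by little, and 12.8% of all tested genes had their groups apart in this direction. The means were 40.3 ± 13.3 and 20.6 ± 6.29 FPKM (SD, n = 3 each), a ratio of 1.96. The log2 fold change was 0.96 with a standard error of 0.33 and a 95% interval from 0.20 to 1.72, and VEGFA did not pass limma (unadjusted p = 0.0192, adjusted p = 0.134). Exact permutation over the 10 possible splits gave p = 0.1, the smallest that 3 against 3 allow. Its adjusted p ran from 0.109 to 0.338 over the alternatives, so the gene was not called in any of them.

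FLT1 and KDR, the receptors of VEGFA, had the same direction with overlapping groups. Below, values of single pigs follow the order HF01, HF02, HF03 and LF01, LF02, LF03. FLT1 (chromosome 11, 5619970 to 5794957) measured 5.78, 6.20 and 7.67 FPKM (HF) against 3.52, 6.52 and 3.05 (LF). The overlap came from LF02, which lay above HF01 and HF02. The log2 fold change of FLT1 was 0.64 (standard error 0.29, 95% interval -0.027 to 1.32, limma adjusted p = 0.215). KDR (chromosome 8, 41809115 to 41856379) measured 5.39, 3.95 and 5.94 FPKM (HF) against 3.49, 4.48 and 2.68 (LF). Here HF02 was low, below LF02. The log2 fold change of KDR was 0.52 (standard error 0.25, 95% interval -0.055 to 1.09, limma adjusted p = 0.238). Without LF02 the adjusted p of FLT1 was 0.0604, the lowest of any of the 10 genes under any setting.

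CDH5, the cadherin of endothelial junctions, measured 12.8, 11.6 and 16 FPKM (HF) against 9.15, 12.2 and 6.34 (LF) (chromosome 6, 27108499 to 27142921). LF02 lay between HF02 and HF01, and the other LF pigs were below every HF pig. Its means were 13.5 ± 2.25 and 9.22 ± 2.92 FPKM (SD, n = 3 each), with a log2 fold change of 0.58 (standard error 0.27, 95% interval -0.031 to 1.19, limma adjusted p = 0.220). PECAM1, the other junction protein, had a smaller difference. It measured 31.6, 32.2 and 35.9 FPKM (HF) against 33.1, 34.6 and 18.9 (LF) (chromosome 12, 14636641 to 14723295). A single pig, LF03, was low, while the levels of LF01 and LF02 lay within the HF range. The log2 fold change of PECAM1 was 0.25 (standard error 0.26, 95% interval -0.35 to 0.85, limma adjusted p = 0.582), and without LF03 it turned to -0.028 (adjusted p = 0.956). The gene model of PECAM1 overlaps that of MILR1, a receptor of mast cells, which was at 0.0689 to 0.251 FPKM in the 6 pigs.

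VWF, the stored clotting protein, measured 8.76, 11.5 and 15.6 FPKM (HF) against 8.42, 11.2 and 6.95 (LF) (chromosome 5, 64517481 to 64678840). Its log2 fold change was 0.42 (standard error 0.27, 95% interval -0.21 to 1.04, limma adjusted p = 0.374). VWF and PECAM1 are also found in platelets, and PECAM1 in white blood cells, whose part in these values was not tested. Of 7 listed platelet markers 1 (ITGA2B) reached the minimum level, with a log2 fold change of 0.36, and the summed level of the 7 was 5.85 to 7.81 FPKM in HF and 5.03 to 6.08 in LF. PPBP, an abundant platelet chemokine, was at 0 to 0.244 FPKM, GP9 and GP1BA, parts of the platelet receptor for VWF, were at 0.0163 to 0.329, and GP6, the platelet collagen receptor, was listed at 0 in all 6 libraries. PTPRC (CD45), carried by white blood cells, was at 0.967 to 1.47 FPKM in the HF and 1.17 to 1.62 in the LF pigs. HBB, the beta chain of haemoglobin, measured 115, 113 and 65.0 FPKM (HF) against 26.1, 92.1 and 73.6 (LF), with the lowest level in LF01 and overlapping groups. Of 3 tested red blood cell markers 1 had a positive log2 fold change and 1 was lower at an unadjusted p under 0.05 (median -0.18, and 0.017 without HF02 or 0.038 without HF03).

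The angiopoietin receptors and ERG had overlapping groups and did not pass the test. TEK (chromosome 1, 195937431 to 196052751) measured 6.20, 8.70 and 9.32 FPKM (HF) against 6.18, 8.26 and 5.02 (LF), with a log2 fold change of 0.32 (95% interval -0.25 to 0.89, limma adjusted p = 0.458). HF01 and LF01 had nearly the same TEK level. TIE1 (chromosome 6, 167919671 to 167940579) measured 3.78, 4.40 and 5.21 FPKM (HF) against 3.17, 5.43 and 2.35 (LF), with a log2 fold change of 0.36 (95% interval -0.34 to 1.05, limma adjusted p = 0.5). Its highest level was that of LF02. ERG (chromosome 13, 201996905 to 202129223) measured 2.72, 2.92 and 4.24 FPKM (HF) against 2.47, 2.89 and 1.6 (LF), with a log2 fold change of 0.50 (95% interval -0.13 to 1.13, limma adjusted p = 0.297). HF01 lay below LF02 in ERG as well.

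EGFL7, the secreted matrix protein, measured 13.9, 13.3 and 16.9 FPKM (HF) against 12.9, 20.1 and 19.7 (LF). It was the only one of the 10 genes with a negative log2 fold change, -0.24 (standard error 0.23, 95% interval -0.77 to 0.30, limma adjusted p = 0.563), and the value was negative under each alternative (-0.44 to -0.12). In LF03, where the other 9 genes had their lowest level, EGFL7 was near its highest. The gene lies on an unplaced scaffold of Sscrofa11.1, and its model overlaps those of the microRNA miR-126 and of AGPAT2, an acyltransferase of phospholipid and triglyceride synthesis. AGPAT2 measured 6.60, 3.91 and 4.84 FPKM (HF) against 3.0, 3.52 and 4.65 (LF). Whether fragments of the overlapping stretch were shared between both genes was not tested.

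**Figure D2:**
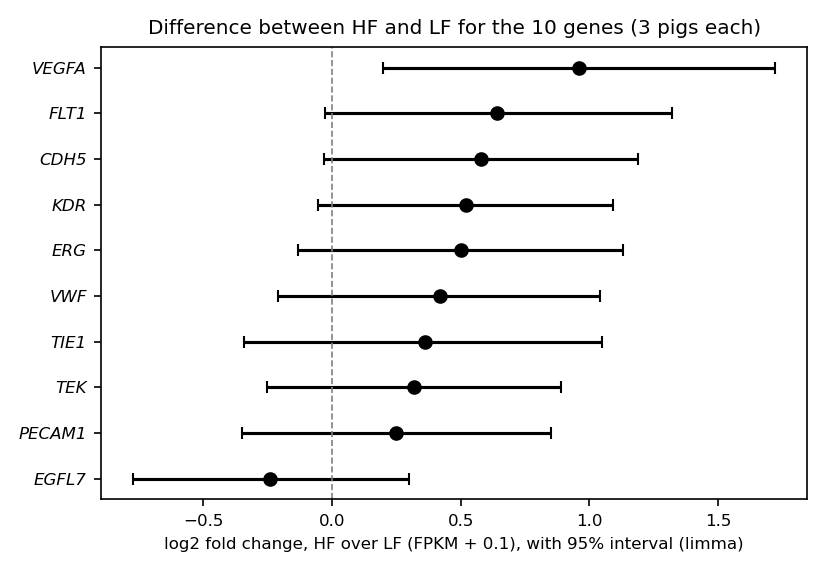
Log2 fold change of HF over LF on log2(FPKM + 0.1) for the 10 genes, with 95% intervals from limma (3 pigs per group). The interval of VEGFA lies above 0, from 0.20 to 1.72, and those of the other 9 genes include 0.

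The highest and lowest levels fell in the same pigs for most of these genes. HF03 was the highest pig for 8 genes, and LF03 was the lowest for 9, the exceptions being TIE1 and EGFL7, which were highest in LF02, and EGFL7, which was lowest in LF01. Relative to each gene's mean over the 6 pigs on the log2 scale, the median of the 10 genes was 0.52 in HF03, 0.10 in HF02 and 0.033 in HF01. Among the LF pigs it was 0.17 in LF02, -0.25 in LF01 and -0.70 in LF03. LF02 was the highest LF pig for all 10 genes, above HF01 and HF02 in this median, and 9 of its 10 genes, all but VEGFA, were above their mean. The sum of the 9 genes without VEGFA was 91.0, 94.8 and 117 FPKM in the HF pigs and 82.4, 106 and 66.5 FPKM in the LF pigs. The median log2 fold change of the 10 genes was 0.28 without HF03, 0.26 without LF03 and 0.67 without LF02.

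**Figure D3:**
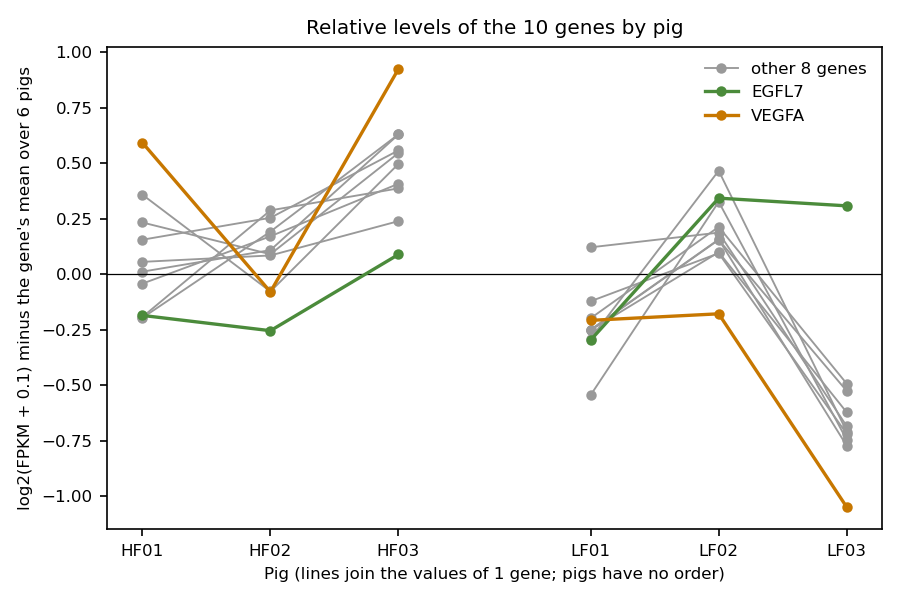
Level of each of the 10 genes in each pig as log2(FPKM + 0.1) minus the gene's mean over the 6 pigs. VEGFA is drawn in orange, EGFL7 in green and the other 8 genes in grey. Of the 10 genes, 8 lie highest in HF03 and 9 lie lowest in LF03, where EGFL7 stays high, and in LF02 all but VEGFA lie above 0.

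Ratios of genes within a library do not depend on how that library was scaled, and 4 were compared by exact permutation tests with Benjamini-Hochberg adjustment. VEGFA was 7.77, 6.63 and 8.88 times the level of its receptor KDR in the HF pigs and 6.86, 5.46 and 4.98 times in the LF pigs. The groups overlapped, since LF01 exceeded HF02 (difference of the means 0.43 on the log2 scale, exact permutation p = 0.2, adjusted 0.8). FLT1 was 1.07, 1.57 and 1.29 times the level of KDR in the HF pigs and 1.01, 1.45 and 1.14 times in the LF pigs (difference 0.13, exact permutation p = 0.6, adjusted 0.8). FLT1 was therefore above KDR in all 6 pigs. TEK was 1.52 to 2.14 times TIE1, with a difference of -0.043, and VWF was 0.682 to 1.1 times CDH5, with a difference of -0.16 (exact permutation p = 0.8 and 0.6, both adjusted 0.8). The first of these was positive without HF01 (0.023) or LF03 (0.061), the second without HF01 (0.012), and the difference of FLT1 to KDR was negative without HF02 (-0.0099).

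Of a list of 28 other genes of endothelium, 26 were in the table and 25 were tested, of which 24 had a positive log2 fold change, 4 were higher and 1 was lower at an unadjusted p under 0.05 (median 0.38, 0 called by limma). Many of the 24 were near 0. The log2 fold change was 0.0034 to 0.09 in CLEC14A, AFAP1L1, RASIP1, MMRN2, CD34, ESAM and PLVAP, with overlapping groups. In CLEC14A and AFAP1L1 the mean FPKM was lower in HF (ratios 0.992 and 0.923). PTPRB (VE-PTP), the phosphatase that acts on TEK and is bound to CDH5, measured 3.51, 4.6 and 5.21 FPKM (HF) against 2.13, 2.92 and 1.63 (LF) (log2 fold change 0.99, adjusted p = 0.0961). No pig of one group reached the other. Every HF level lay above all LF levels in 3 of the 25 genes, and in 12.8% of all tested genes. SHANK3, a scaffold protein, was at 2.49 ± 1.17 and 1.04 ± 0.206 FPKM (SD, n = 3 each), with a log2 fold change of 1.12 and an adjusted p of 0.109, and CYYR1 at 15.3 ± 3.96 and 8.69 ± 3.31 (log2 fold change 0.84, adjusted p = 0.145). The single gene of the opposite sign was GPIHBP1, which holds lipoprotein lipase on the capillary wall. It measured 2.10, 1.55 and 2.64 FPKM (HF) against 5.15, 6.63 and 3.61 (LF), each HF level lying below all LF levels, as in 17.1% of all tested genes (log2 fold change -1.24, adjusted p = 0.0892). The number with a positive sign was 14 of 25 without LF03, 17 without HF03 and 21 with median-of-ratios scaling, while 10 were higher at an unadjusted p under 0.05 without LF02.

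Among 14 tested transcription factors of endothelium, 11 had a positive log2 fold change, 5 were higher and 0 lower at an unadjusted p under 0.05 (median 0.46, 0 called by limma). In 7 each HF level exceeded all LF levels (12.8% of all tested genes), and in 1, MEF2C, it lay below them (17.1% of all tested genes), at 35.8 to 38.0 FPKM against 39.2 to 40.1. MEF2C was thus well above ERG (1.6 to 4.24 FPKM), and which cells its messages came from was not tested. SOX18, which acts in arteries and lymphatics, measured 2.18, 1.87 and 2.73 FPKM (HF) against 0.606, 0.891 and 0.556 (LF) (log2 fold change 1.6, standard error 0.27, adjusted p = 0.0711). SOX17, a factor of arterial endothelium, was at 1.42, 0.704 and 1.42 FPKM against 0.0896, 0.433 and 0.361 (log2 fold change 1.77, adjusted p = 0.101). ETS1, of the same family as ERG, was at 7.52 ± 0.895 and 5.29 ± 0.559 FPKM (SD, n = 3 each, adjusted p = 0.155), and LMO2 at 2.63 ± 0.441 and 1.68 ± 0.367 (adjusted p = 0.159). These 4 genes had no overlap between the groups, unlike ERG. The adjusted p of SOX18 was 0.0453 without LF02, in a range from 0.0453 to 0.252, and its model overlaps that of TCEA2. Without LF03, 2 of these factors were higher at an unadjusted p under 0.05.

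Markers of arteries, veins and lymphatics were counted separately. Of 7 tested arterial genes 6 had a positive log2 fold change and 4 were higher at an unadjusted p under 0.05 (median 0.82). Without HF03, 2 were higher and the median was 0.52, and without LF03, 2 of 8 were higher and 5 positive. EFNB2, the ephrin of arterial cells, measured 6.29, 7.30 and 5.99 FPKM (HF) against 2.54, 4.31 and 3.57 (LF), with no overlap (log2 fold change 0.92, adjusted p = 0.0899). Every HF level lay above all LF levels in 2 of the 7 arterial genes, against 12.8% of all tested genes. JAG1, a Notch ligand, was at 3.95 ± 0.753 and 2.21 ± 0.704 FPKM, GJA5, a gap junction protein, at 4.98 ± 0.984 and 2.84 ± 1.44, and NOTCH4 at 3.19 ± 1.37 and 1.66 ± 0.191 (SD, n = 3 each). Of 7 venous and activation genes 1 was higher (APLNR, the apelin receptor) and 1 lower (VCAM1, which binds white blood cells) at an unadjusted p under 0.05. VCAM1 measured 6.18, 10.7 and 7.80 FPKM (HF) against 12.2, 12.9 and 13.8 (LF) (log2 fold change -0.68, adjusted p = 0.130). All 5 tested lymphatic genes had a positive log2 fold change, and 2 were higher at an unadjusted p under 0.05. These were PROX1, the lymphatic master regulator, at 0.895 ± 0.472 and 0.202 ± 0.123 FPKM and PDPN at 6.15 ± 1.57 and 3.88 ± 0.472 (SD, n = 3 each). In LYVE1, CCL21 and MMRN1 the groups overlapped, and HF01 was the lowest of the 6 pigs (log2 fold changes 0.14, 0.56 and 0.85). Which cells these messages came from was not tested. The lymphatic median of 0.63 was 1.35 without HF01, 1.06 without LF02 and 0.39 without HF03, where 3 of 4 were positive. None of the genes of these 3 lists was called by limma (0, with 7 higher and 1 lower at an unadjusted p under 0.05 in all).

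Of the other ligands and co-receptors of VEGF, 7 of 8 listed were tested, and 5 of these had a positive log2 fold change, 2 of them at an unadjusted p under 0.05, a count of 0 without HF03 or LF03 (median 0.48, 0 called by limma). NRP1, the co-receptor that presents VEGFA to KDR, measured 6.50, 5.28 and 9.09 FPKM (HF) against 4.25, 4.90 and 3.29 (LF), without overlap (log2 fold change 0.72, adjusted p = 0.139). It was the 1 gene of the 7 with every HF level above all LF levels, against 12.8% of all tested genes. PLXND1, a semaphorin receptor of endothelium, was at 2.78 ± 0.559 and 1.73 ± 0.609 FPKM, NRP2 at 1.27 ± 0.486 and 0.714 ± 0.219, and VEGFC, the lymphatic growth factor, at 2.36 ± 0.341 and 1.69 ± 0.447 (SD, n = 3 each). FLT4, the receptor of VEGFC, was under the minimum level at 0.0391 to 0.350 FPKM. Of 7 genes of the angiopoietin family and related secreted proteins, 6 had a positive log2 fold change (median 0.55, and 0.33 without HF03), with ANGPT1 and ANGPT2, the ligands of TEK, both under 2 FPKM in every pig. ANGPTL4, a secreted inhibitor of lipoprotein lipase, had the opposite sign, at 2.32, 1.51 and 1.55 FPKM (HF) against 12.7, 4.58 and 8.11 (LF) (log2 fold change -2.09, standard error 0.36, adjusted p = 0.0738). SVEP1, a matrix protein, was at 1.51 ± 0.655 and 0.576 ± 0.114 FPKM (SD, n = 3 each, adjusted p = 0.116). Without LF02 the adjusted p of ANGPTL4 was 0.0277, within a range of 0.0277 to 0.247 over the alternatives.

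**Figure D4:**
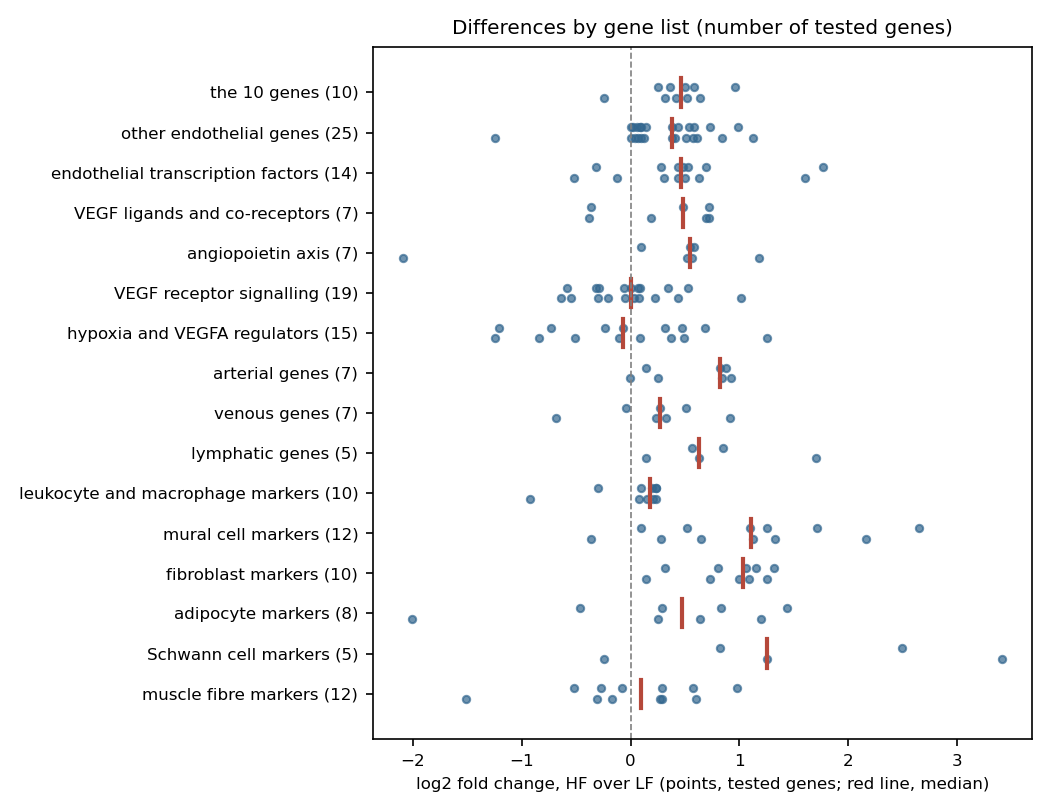
Log2 fold change of HF over LF on log2(FPKM + 0.1) for the tested genes of each list drawn (points), with the median of the list as a red line and the number of tested genes in brackets. The platelet and red blood cell markers are not drawn. The medians of the 10 genes (0.46) and of the other endothelial genes (0.38) lie below those of the mural cell (1.11), fibroblast (1.03) and Schwann cell (1.25) markers.

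Markers of other cells of the muscle were counted beside these genes, and their part in the values above was not tested. Of 12 mural cell markers, which label the smooth muscle cells and pericytes around vessels, 11 had a positive log2 fold change and 8 were higher at an unadjusted p under 0.05 (median 1.11), while their summed level overlapped (1250 to 2640 FPKM in HF, 1660 to 2750 in LF), most of it from DES (822 to 2630 FPKM), which muscle fibres also express. CNN1, a smooth muscle calponin, measured 24.0, 44.1 and 38.1 FPKM (HF) against 3.55, 11.0 and 3.93 (LF) (log2 fold change 2.65, adjusted p = 0.0702), and ACTA2, the smooth muscle actin, was at 77.9, 194 and 192 against 26.1, 84.5 and 37.3 (log2 fold change 1.71, adjusted p = 0.104). NOTCH3 and CSPG4, carried by mural cells, had log2 fold changes of 1.1 and 1.33. The markers not among the 8 were PDGFRB (0.52), RGS5 (0.28), KCNJ8 (0.10) and DES (-0.36), with overlapping groups. Smooth muscle cells and pericytes were not told apart. In ACTA2, LF02 was the highest of the LF pigs and lay above HF01. All 10 fibroblast markers had a positive log2 fold change (6 at an unadjusted p under 0.05, median 1.03), and their summed level was 331 to 840 FPKM in the HF and 297 to 363 in the LF pigs. Of 5 Schwann cell markers 4 were higher at an unadjusted p under 0.05, with sums of 46.5 to 103 FPKM in HF and 31.3 to 38.9 in LF, and the 8 tested adipocyte markers had a median of 0.47 with overlapping sums (147 to 298 and 171 to 303 FPKM). That median was 0.93 without HF01 (4 higher at an unadjusted p under 0.05), 0.18 without HF02 and 0.25 without HF03. At an unadjusted p under 0.05, 0 adipocyte markers were higher and 1 was lower (limma), while 6 of the 8 were positive. The lower gene was LIPE, a lipase, at 2.93, 8.32 and 7.86 FPKM (HF) against 63.4, 5.43 and 38.0 (LF). Its log2 fold change was -2.01 (limma adjusted p = 0.182), with overlapping groups. ADIPOQ, the adipocyte hormone, measured 2.69, 34.7 and 24.1 FPKM (HF) against 11.6, 8.98 and 3.83 (LF). The 10 tested white blood cell markers had a median of 0.18 (8 positive, and 0 positive with a median of -0.26 without HF03) with 0 at an unadjusted p under 0.05 (limma, 0 called), and their sums were 13.1 to 42.1 FPKM in HF and 22.1 to 23.7 in LF. None of the markers in these lists was called by limma. Without LF02, 14 genes of all the lists were called, in a fit where 102 of all genes were called higher and 124 lower. Among the 14, CNN1, ACTA2 and SOX18 were higher in HF, and ANGPTL4, BNIP3 and LIPE were lower. The adjusted p of CNN1 was 0.0199 without LF02, in a range from 0.0199 to 0.238.

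The fibre markers, which check the tissue, were abundant. As a list they shared no direction, with 6 of 12 tested genes of each sign and a median of 0.10. At an unadjusted p under 0.05 there were 0 (limma, 0 called). The 6 negative genes were all of fast fibres: TNNC2 (-0.52), TNNI2 (-0.31), TNNT3 (-0.27), ACTN3 (-0.17), MYBPC2 (-0.075) and MYH4 (-1.51). MYH2, also of fast fibres, was at 0.29, and the slow fibre genes MYBPC1 and MYH7 were at 0.98 and 0.60. The groups overlapped in each of these genes, and a difference in fibre type was not tested. CKM, the muscle creatine kinase, measured 2820, 2000 and 2670 FPKM (HF) against 2010, 2650 and 1620 (LF). MYBPC1, the myosin binding protein of slow fibres, measured 647, 268 and 857 FPKM (HF) against 234, 197 and 415 (LF) (log2 fold change 0.98, adjusted p = 0.219). MYH7, the slow myosin heavy chain, measured 284, 82.6 and 609 FPKM (HF) against 145, 87.2 and 322 (LF). HF03, the highest pig for VEGFA, was the highest of the 6 pigs for both slow fibre genes. LF03, the lowest pig for VEGFA, was the highest LF pig for both. A relation between these genes and VEGFA was not tested. The libraries had 14569 to 15336 genes above 0 FPKM. Some abundant messages are listed at 0 in single libraries, ACTA1 in HF01 and HF03 and COX1, ATP8, ATP6 and COX3 in LF02, so that LF02, on which several values above depend, also stands apart in this respect.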

How the data were processed

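RNA of longissimus dorsi muscle was sequenced by the authors from 6 pigs, with 1 library per pig. By the study's methods, reads were cleaned with fastp and aligned with HISAT2 to Sscrofa11.1, and the FPKM values deposited by the authors were computed with cufflinks, scaled by transcript length and mapped fragments. The strand setting is not given in the sources used here. Columns with the authors' own comparison (mean count, fold change, standard error, statistic and p-values) were not used, and 0 FPKM columns were left unmapped. Groups follow the sample titles. Depth in reads is not held in FPKM values, so no counting interval was computed, and no count test was run.

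HF and LF were compared with limma (version 3.58.1, R 4.3.3; eBayes with a mean trend, two-sided, no covariate) on log2(FPKM + 0.1) over the 11136 of 25878 genes averaging 0.5 FPKM or more. A fold change on this scale understates that of low genes. Exact permutation tests used scipy (version 1.17.1). Blank symbols (8278) were filled by gene ID where possible (1088). Coordinates are those of the table with 1 added to each start, since 695 starts equalled RefSeq starts after that step and 240 before it. The fit was tested on simulated data. The 10 genes and the 17 other lists were chosen with earlier results of these data known. Genes named are the 10, the up to 4 genes of each list with the smallest p, and a few defining markers (PPBP, PF4, HBB, PTPRC, ACTA2, ADIPOQ, CKM, where listed). Further genes were named after their values were seen: GP9, GP1BA, GP6, FLT4, ANGPT1, MEF2C, DES, MYH7, MYH2, TNNI2, TNNT3, ACTN3, MYBPC2, ACTA1, COX1, ATP8, ATP6, COX3 and genes whose models overlap. Also named in this way were LYVE1, CLEC14A, AFAP1L1, RASIP1, MMRN2, CD34, ESAM, PLVAP, KCNJ8, RGS5 and PDGFRB. The alternatives were other pseudocounts (1 and 0.01 FPKM), other minimum levels (none and 5 FPKM), scaling by upper quartiles or by median of ratios, eBayes in its robust form or with the trend omitted, a replicate block, omission of single pigs, and an adjusted p under 0.10. The p-values of limma set the difference between the groups against the spread between these pigs, which eBayes draws toward a trend over all tested genes.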

Additional observations from a re-analysis of the deposited data

How the results depend on the processing

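None of the 10 genes was called under any of the 15 alternatives (adjusted p under 0.05), the lowest adjusted p being 0.0604 for FLT1 without LF02, with 3 genes (KDR, TIE1 and ERG) falling under a mean of 5 FPKM. Of 147 values of the genes, 146 kept their sign, the exception being PECAM1 without LF03 (-0.028, in a range to 0.41 without single pigs). Without single pigs the number with a positive sign ran from 8 to 9 and the number higher at an unadjusted p under 0.05 from 0 to 5, and with upper-quartile scaling the latter was 3. That scaling moved the median of all genes from -0.026 to 0.081. Over all genes, the calls higher and lower were 4 and 4 in the comparison reported, 2 higher with a pseudocount of 1, 0 and 1 without a filter, 2 higher at a mean of at least 5 FPKM, 12 and 8 with median-of-ratios scaling, 32 and 8 with upper-quartile scaling, 9 higher with the robust fit, 1 and 1 without trend, and 315 and 389 at an adjusted p under 0.10; without single pigs they ran from 0 to 102 and from 1 to 124, the highest without LF02. The cause was not tested.

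List medians moved by more than the spread between pigs at a mean of at least 5 FPKM for the angiopoietin family (-0.78), venous genes (-0.23), red blood cell markers (0.75) and Schwann cell markers (0.82, and 0.79 with a pseudocount of 1), where fewer genes were tested, and without a filter for platelet markers (-0.031). Without single pigs, the differences of the ratios ran from -0.0099 to 0.28 for FLT1 to KDR, from -0.18 to 0.061 for TEK to TIE1 and from -0.26 to 0.012 for VWF to CDH5. Pigs of the same number did not deviate together (correlations across genes of -0.0435, 0.0882 and 0.016), so the number was not taken as a pairing; with the replicate block 6 genes were higher and 8 lower, 0 of the 10 genes were called, and the adjusted p was 0.0418 for CNN1 and 0.0478 for ANGPTL4.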

Other observations

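The genes of oxygen sensing and of VEGFA control did not share a direction, with 7 of 15 tested genes positive and 8 negative (0 called by limma, 2 higher and 2 lower at an unadjusted p under 0.05). Their median was -0.071, and 0.094 without HF02. EPAS1 (HIF-2 alpha), the oxygen-regulated factor that endothelium expresses strongly, measured 19.6, 18.9 and 27.9 FPKM (HF) against 8.51, 13.9 and 6.31 (LF) (log2 fold change 1.25, adjusted p = 0.0899). HIF1A, its relative found in most cells, was at 6.97, 11.3 and 10.8 FPKM against 6.03, 6.39 and 5.30 (log2 fold change 0.68, adjusted p = 0.130), and its model overlaps that of SNAPC1. BNIP3, a mitophagy receptor that responds to low oxygen and to FOXO factors, lay the other way at 107, 136 and 136 FPKM against 284, 235 and 389 (log2 fold change -1.24, adjusted p = 0.0808). EGLN2, an oxygen-sensing hydroxylase, was at 14.1 ± 2.53 and 23.9 ± 7.91 FPKM (SD, n = 3 each). Each of these 4 genes, named for their small p, had groups that did not overlap. Over the 15 tested genes, every HF level lay above all LF levels in 2 and below them in 3. Of all tested genes, 12.8% and 17.1% did so. Without LF02 the adjusted p was 0.047 for EPAS1 and 0.0485 for BNIP3, in ranges of 0.047 to 0.261 and 0.0485 to 0.256.

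Downstream of the VEGF receptors, 10 of 19 tested genes were positive, with a median of 0.0081 (-0.13 without HF02), 1 higher and 2 lower at an unadjusted p under 0.05 and 0 called by limma. PXN (paxillin), an adaptor of focal adhesions, measured 15.4, 14.5 and 14.9 FPKM (HF) against 7.67, 9.08 and 5.78 (LF) (log2 fold change 1.01, adjusted p = 0.0808, and 0.0493 without LF02). SPHK1, a sphingosine kinase, was at 2.41 ± 0.0637 and 3.91 ± 1.01 FPKM, and RAC1 at 78.6 ± 6.45 and 117 ± 23.2 (SD, n = 3 each). Both were lower in each HF pig than in any LF pig, as were 3 of the 19 genes and 17.1% of all tested genes. Of the 19, 2 lay the other way without overlap, against 12.8% of all tested genes. The kinases and adaptors of this list are used by most cells of the muscle.

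EGFL7 relative to the other 9 genes, a comparison chosen after its values were seen and given with no test, was lower in every HF than in every LF pig for 6 of the 9 ratios. EGFL7 was 1.09, 1.14 and 1.06 times CDH5 in the HF pigs and 1.41, 1.65 and 3.10 times in the LF pigs. Its ratio to FLT1 was 2.41, 2.14 and 2.2 in the HF and 3.66, 3.09 and 6.45 in the LF pigs. The ratios to PECAM1, VWF and TEK overlapped between the groups. All 9 ratios share EGFL7 and the same libraries, so they are not separate observations, and the share of such ratios among other genes was not computed. LF03, where the other 9 genes were lowest, had the highest value of each ratio. For TIE1 the gap was slight, with 3.68 in HF01 and 3.71 in LF02.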
